A study of Homo sapiens with 12 samples.

Results

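The comparison described here is that of 12 h with 4 h of treatment in REC1, a line grown from a human mantle cell lymphoma that carries the CCND1 rearrangement typical of this B-cell tumour. It uses 8 of the 12 samples of the series, chosen by the time given in their titles: 4 samples taken at 12 h and 4 taken at 4 h. At each of these times 1 sample had received ibrutinib, 1 SPX5551, 1 the combination of ibrutinib and SPX5551, and 1 DMSO alone. The 4 samples of 8 h were kept out of the main fit. They are used to place the intermediate time and in an alternative fit of all 12 samples. Ibrutinib is a covalent inhibitor of Bruton's tyrosine kinase (BTK), and SPX5551, written pol5551 in the column headers, is an antagonist of the chemokine receptor CXCR4. All samples share 1 cell line, medium with fetal bovine serum, and antibiotics; no dose is stated in the labels, and no untreated sample taken at the start was analysed. With 1 library per treatment and time, the 4 treatments stand in as replicates of a time. Each p-value sets a gene's mean change against the spread of that change across treatments. Harvest, handling and time cannot be told apart.

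Cells in suspension culture take up nutrients and oxygen and release cytokines, and genes of growth, of the response to low oxygen and of autocrine signals are known to vary with time in a dish. In B cells, signals from the B-cell receptor run through BTK to the transcription factor NF-kappaB and drive chemokines, survival genes and MYC, whereas FOXO factors act when such signals fall and raise genes of cell cycle exit and of B-cell identity. Ribosome production and glycolysis are the large consumers of a growing lymphoma cell and are commonly under the control of MYC and of hypoxia-inducible factors.

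The libraries held 19336303 to 24432822 counts at 12 h and 19888090 to 22951827 at 4 h, and 13736 of 60483 genes passed the filter on low counts. No 2 of the 8 libraries were alike within sampling noise, the smallest chi-square per degree of freedom over genes being 5.07. The B-cell genes CD79A, MS4A1 and PAX5 were high in all 8 libraries, at 1016 to 1144, 769 to 803 and 361 to 684 CPM at 12 h, against 701 to 881, 739 to 887 and 288 to 486 CPM at 4 h. CPM here is the count per 1000000 counts after scaling library sizes by the trimmed mean of M values (TMM). CCND1, which encodes cyclin D1, stood at 1290.0 to 1623 CPM at 12 h and 1562 to 1697 CPM at 4 h, whereas transcripts of CXCL12, the ligand of CXCR4, were listed at 0 in all 8 libraries. Summed markers of T cells were 19.1 to 20.7 CPM at 12 h and 12.8 to 17.2 CPM at 4 h, those of myeloid cells 2.13 to 3.61 and 2.82 to 3.98 CPM, and those of stromal and epithelial cells 119 to 137 and 80.5 to 109 CPM, with CD2, CD8B, S100A8, S100A9, FCGR3A, COL1A2 and KRT19 at 0 throughout. Of the 15 tested members of these 3 lists, 6 rose and 3 fell, against 18.8% higher and 16.2% lower among all tested genes. Ribosomal protein genes took 9.48% of counts in the ibrutinib library of 12 h, 12.4% in the SPX5551 library, 9.40% in the combination library and 8.96% in the DMSO library, against 10.6 to 12.3% at 4 h. The sample descriptions pair each title with a column headed by another treatment of the same time, the same shift at both times, and here titles and column headers were followed. The 12 h and 4 h groups are the same libraries either way, but the treatment names given to them would change. CCL4, a chemokine gene induced through the B-cell receptor, had 0.560, 5.200, 0.418 and 3.49 CPM at 12 h, against 1.51, 7.38, 0.996 and 9.36 CPM at 4 h under the header names, which is low in both libraries headed as ibrutinib-exposed at each time.

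Values of the 4 treatments are always listed in the order ibrutinib, SPX5551, combination and DMSO. Between 12 h and 4 h genes moved in both directions. In edgeR's quasi-likelihood test with treatment as a block, 4800 genes, 34.9% of those tested, passed an adjusted p of 0.05: 2577 were higher at 12 h (18.8%) and 2223 were lower (16.2%). Of these, 4398 genes (32.0% of those tested) had the same sign of change in all 4 treatments, 2274 higher and 2124 lower. They are called shared below. The test takes the treatments as replicates, so a gene that moved evenly across them passes more readily, and the size of this shared part is largely set by the test itself. Among all tested genes, 6629 (48.3%) had the same sign in all 4 treatments. In bulk RNA, fewer cells of a kind and less RNA per cell cannot be told apart. Most shifts were small, with a median absolute log2 fold change of 0.46 among the genes that passed, and 490 of them changed more than 2-fold, 307 higher and 183 lower. In 2931 of the 4398 shared genes the 4 libraries of 12 h did not overlap the 4 libraries of 4 h in CPM; groups did not overlap in 24.7% of all tested genes. The number passing was 3150 without the DMSO pair, 2430 without the ibrutinib pair, 6225 without the SPX5551 pair and 2387 without the combination pair. With scaling by library size alone, 67.9% of the genes that passed were higher at 12 h, against 53.7% with TMM. With the trend on transcript length and GC content removed the share was 44.2%. Falls also outnumbered rises with DESeq2 (2097 and 1971), limma on the deposited log2 CPM (2463 and 2391) and all 12 samples (2616 and 2587). Rises outnumbered falls with limma-voom (2605 and 2270) and without the filter (2715 and 2036). The balance of rises and falls thus depended on the processing.

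The SPX5551 pair moved least. The standard deviation of the log2 change between 12 h and 4 h over all tested genes was 0.53 with ibrutinib, 0.40 with SPX5551, 0.58 with the combination and 0.56 with DMSO. Among shared genes the smallest of the 4 changes belonged to the SPX5551 pair in 2830 of 4398 (64.3%). Among the 12 h libraries the SPX5551 one was the nearest to 4 h in 52.7% of the shared genes, and among the 4 h libraries it was the nearest to 12 h in 38.6%. Across all 13736 genes the changes of 2 treatments correlated with a Pearson r of 0.35 for SPX5551 and DMSO, 0.41 for SPX5551 and the combination, 0.49 for ibrutinib and SPX5551, 0.64 for ibrutinib and DMSO, 0.67 for the combination and DMSO, and 0.69 for ibrutinib and the combination. These correlations are a description across genes that share a library and its transcript length trend. Spearman's rho between a gene's change and its transcript length was 0.09 with ibrutinib, -0.16 with SPX5551, 0.19 with the combination and 0.31 with DMSO. The part of the length trend and of library preparation in the smaller change with SPX5551 was not tested.

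**Figure D1:**
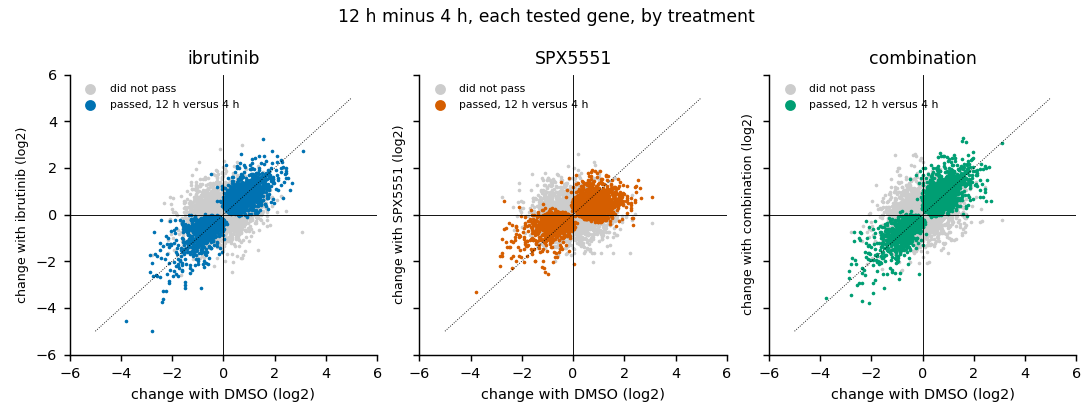
Each point is 1 of the 13736 tested genes. The x axis is the difference of log2 CPM between 12 h and 4 h with DMSO, the y axis that with ibrutinib, SPX5551 or the combination, and coloured points passed the test of 12 h versus 4 h. The cloud is flatter for SPX5551, whose changes had a standard deviation of 0.40 against 0.53 to 0.58 in the other treatments.

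The 15 largest shared rises among genes of at least 2 log2 CPM on average joined genes of transcriptional control, cell cycle arrest, innate sensing and the cytoskeleton. ID1, which encodes an inhibitor of DNA-binding helix-loop-helix factors (chromosome 20, 31605283 to 31606515, GRCh38), rose most. It had 6.16, 6.73, 13.0 and 4.86 CPM at 12 h, against 0.991, 2.89, 1.26 and 1.55 CPM at 4 h; the log2 fold change was 2.19 ± 0.29 (SE), adjusted p = 0.000295. All 12 h libraries lay above all 4 h libraries, and the combination library of 12 h stood highest. HES5, a repressor that is a classical Notch target, had 35.1, 29.4, 26.5 and 28.7 CPM at 12 h, against 6.04, 12.4, 8.19 and 6.63 CPM at 4 h. Its log2 fold change was 1.88 ± 0.17 (SE), adjusted p = 4.83e-05, and among the 4 h libraries the SPX5551 one was highest. KLHL24, a substrate adaptor of a cullin ubiquitin ligase, had 28.8, 20.0, 31.9 and 19.9 CPM at 12 h, against 5.99, 12.2, 6.98 and 4.07 CPM at 4 h (log2 fold change 1.84 ± 0.22 SE, adjusted p = 0.000182). The rise was smallest with SPX5551, whose 4 h library was the highest of its time. CCNG2 encodes cyclin G2, an atypical cyclin associated with cell cycle arrest, and it had 33.5, 22.7, 36.5 and 27.8 CPM at 12 h, against 7.22, 15.6, 7.19 and 7.44 CPM at 4 h (log2 fold change 1.73 ± 0.23 SE, adjusted p = 0.00031).

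AIM2, the sensor of DNA in the cytosol, was the most abundant of the 15 and had 147, 143, 140.2 and 132 CPM at 12 h, against 44.2, 78.6, 31.5 and 42.8 CPM at 4 h (log2 fold change 1.59 ± 0.15 SE, adjusted p = 6.27e-05). The 12 h libraries of AIM2 lay within 132 to 147 CPM, while at 4 h the SPX5551 library stood above the other 3. MAP1B, a microtubule-associated protein, had 90.0, 50.0, 72.6 and 95.2 CPM at 12 h, against 27.7, 32.5, 19.8 and 26.8 CPM at 4 h (log2 fold change 1.51 ± 0.17 SE, adjusted p = 0.000138). The interferon-inducible genes SAMD9L and OAS1, described with their group below, also belonged to the 15. The others were FGR, a Src family kinase, TRPM2, a calcium-permeable channel, EPHB6, an Eph receptor without kinase activity, PACSIN1, which bends membranes, LDB3 and SSPN, known from muscle, and the non-coding LINC01232. Their log2 fold changes ran between 1.56 and 1.68, with adjusted p-values of edgeR's test between 6.12e-05 and 0.000387.

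The largest falls included genes of several secreted and surface proteins. EMILIN2, an extracellular matrix glycoprotein (chromosome 18, 2847030 to 2915993, GRCh38), fell most of all. It had 0.610, 0.891, 0.912 and 1.21 CPM at 12 h, against 16.7, 9.66, 12.0 and 18.0 CPM at 4 h, a log2 fold change of -3.92 ± 0.19 (SE), adjusted p = 6.3e-07, which is also the smallest adjusted p of the comparison. Every 12 h library was near 1 CPM, and at 4 h the SPX5551 library was the lowest. The chemokine genes CXCL9 and CXCL10, whose products attract T cells through CXCR3, lie beside each other on chromosome 4 and fell together. CXCL9 had 3.26, 6.09, 1.82 and 7.14 CPM at 12 h, against 24.0, 21.02, 26.3 and 31.1 CPM at 4 h (log2 fold change -2.58 ± 0.24 SE, adjusted p = 6.01e-05). CXCL10 had 10.3, 25.3, 4.98 and 32.1 CPM at 12 h, against 61.7, 64.2, 35.5 and 116 CPM at 4 h (log2 fold change -2.10 ± 0.19 SE, adjusted p = 4.83e-05). CCL22, which encodes a ligand of CCR4, had 4.93, 10.0, 2.89 and 6.28 CPM at 12 h, against 31.2, 26.5, 23.9 and 37.9 CPM at 4 h (log2 fold change -2.39 ± 0.20 SE, adjusted p = 4.1e-05). In all 3 chemokine genes the 4 libraries of 12 h lay below the 4 libraries of 4 h, and at 12 h the combination library was the lowest.

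EBI3, a subunit of the cytokines interleukin 27 and interleukin 35, had 14.2, 32.0, 11.9 and 23.7 CPM at 12 h, against 87.9, 54.1, 90.9 and 92.0 CPM at 4 h (log2 fold change -2.06 ± 0.26 SE, adjusted p = 0.000237). Its SPX5551 library was the highest of 12 h and the lowest of 4 h. LMNA, which encodes the nuclear lamins A and C, had 2.24, 2.82, 3.19 and 2.78 CPM at 12 h, against 12.1, 8.31, 10.1 and 12.1 CPM at 4 h (log2 fold change -1.93 ± 0.16 SE, adjusted p = 4.1e-05), and its 12 h libraries were tight. PTPRF, a receptor protein tyrosine phosphatase, had 2.59, 2.18, 3.23 and 3.04 CPM at 12 h, against 12.5, 7.69, 11.4 and 10.7 CPM at 4 h (log2 fold change -1.93 ± 0.14 SE, adjusted p = 2.54e-05). RFTN1, which encodes the lipid raft protein raftlin, fell with a log2 fold change of -2.26 ± 0.27 (SE), adjusted p = 0.000184. IGFBP2, a binding protein of insulin-like growth factors, fell with -1.79 ± 0.15 (SE), adjusted p = 3.39e-05. HTR3A, LSAMP, KIF26B, FEZ1 and RSPH1, genes known mainly from neurons, cilia or cell adhesion, fell with log2 fold changes between -2.45 and -1.77. All 30 named genes had groups that did not overlap, and in all 30 the SPX5551 pair gave the smallest change of the 4.

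**Figure D2:**
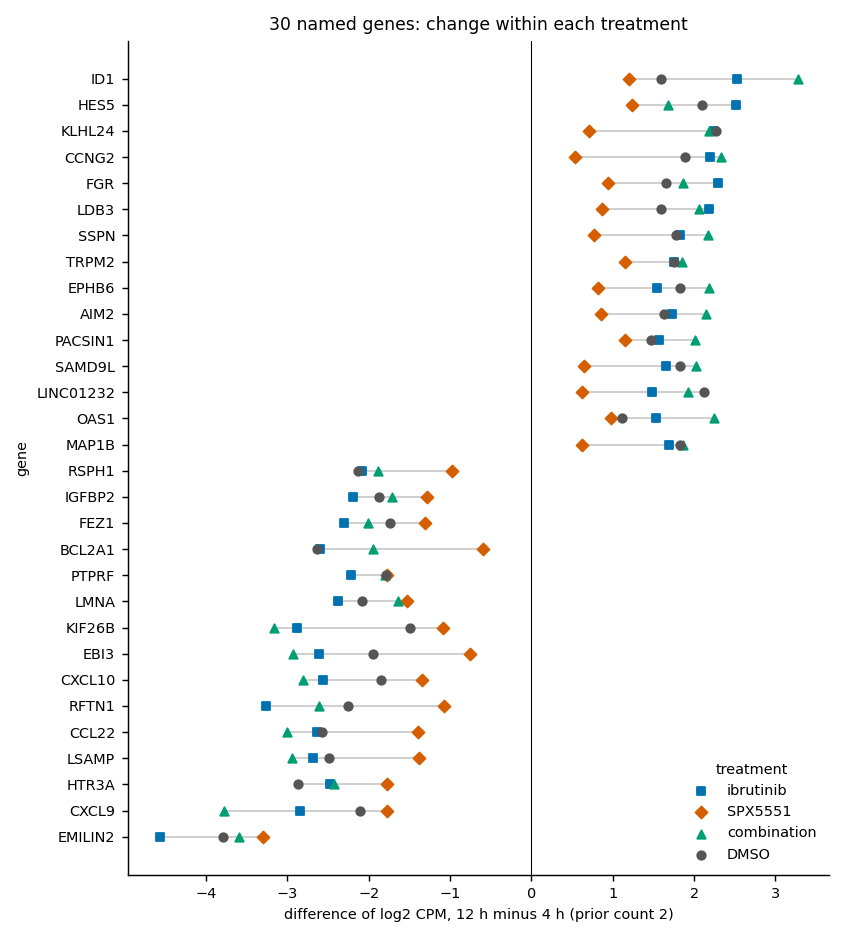
Rows are the 15 genes with the largest shared rise and the 15 with the largest shared fall. The x axis is the difference of log2 CPM, 12 h minus 4 h, and each point is 1 treatment. The SPX5551 point is nearest to 0 in all 30 rows.

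NF-kappaB targets fell more often than they rose. Of 21 tested members, 8 fell and 3 rose, with a median log2 fold change of -0.14 against 0.01 over all tested genes; the background was 16.2% lower and 18.8% higher. Of the 8 that fell, 5 were shared. BCL2A1, a BCL2 relative that protects B cells from apoptosis, had 2.24, 11.1, 3.53 and 4.61 CPM at 12 h, against 14.02, 16.8, 13.9 and 29.1 CPM at 4 h (log2 fold change -1.89 ± 0.27 SE, adjusted p = 0.000458). It fell in every treatment, by 0.59 on the log2 scale with SPX5551. RELB, a subunit of non-canonical NF-kappaB, had 9.61, 22.04, 9.19 and 15.8 CPM at 12 h, against 28.2, 25.3, 30.5 and 32.9 CPM at 4 h (log2 fold change -1.12 ± 0.19 SE, adjusted p = 0.00119). NFKB2, CD40 and TNFAIP3 also fell in all 4 treatments, with log2 fold changes of -0.71, -0.67 and -0.62. IRF1 and TNF went the other way. IRF1, an interferon regulatory factor, had 36.6, 33.6, 39.8 and 30.9 CPM at 12 h, against 18.97, 24.7, 17.0 and 14.1 CPM at 4 h (log2 fold change 0.94 ± 0.12 SE, adjusted p = 0.000275). TNF had 4.48, 18.6, 1.94 and 21.8 CPM at 12 h, against 1.04, 10.7, 0.433 and 14.3 CPM at 4 h (log2 fold change 1.07 ± 0.21 SE, adjusted p = 0.00277); at both times its level was low in both libraries exposed to ibrutinib, whose 12 h values stood below the 4 h value of DMSO.

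Early response genes of the B-cell receptor split. Of 23 tested members, 5 rose and 6 fell, with a median log2 fold change of -0.06, against 18.8% higher and 16.2% lower among all tested genes. With scaling by library size alone 7 rose and 3 fell, and the median was 0.017. CD83, a surface marker of activated B cells, had 60.7, 209, 41.6 and 183 CPM at 12 h, against 140.1, 286, 126 and 438 CPM at 4 h (log2 fold change -1.13 ± 0.14 SE, adjusted p = 0.000237). DUSP5, a phosphatase that acts on ERK, had 48.4, 52.0, 61.8 and 50.7 CPM at 12 h, against 26.0, 44.6, 25.9 and 37.9 CPM at 4 h (log2 fold change 0.70 ± 0.14 SE, adjusted p = 0.00271). MYC, the growth regulator, had 186, 208, 124 and 222 CPM at 12 h, against 113, 169.9, 64.1 and 209 CPM at 4 h (log2 fold change 0.51 ± 0.12 SE, adjusted p = 0.00693), and its ordering by treatment was the same at both times. Without the ibrutinib pair 2 members of this list rose and 3 fell, without the combination pair the numbers were also 2 and 3, and without the DMSO pair they were 6 and 3.

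**Figure D3:**
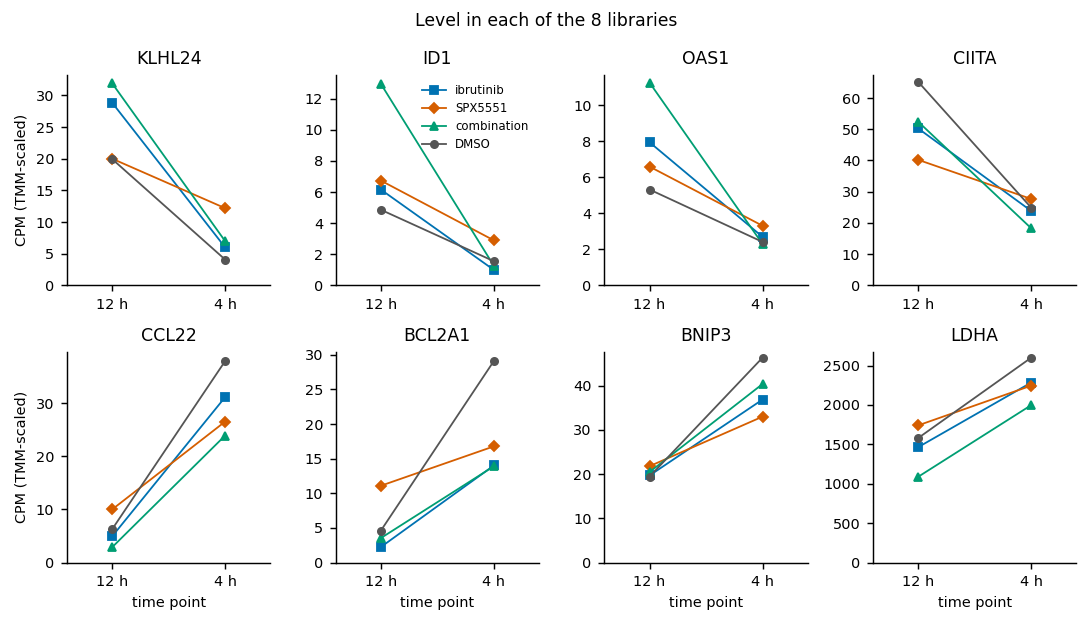
TMM-scaled CPM on linear axes that start at 0, with 12 h left of 4 h and 1 line per treatment, for 8 genes. KLHL24, ID1, OAS1 and CIITA are higher at 12 h in every treatment, and CCL22, BCL2A1, BNIP3 and LDHA are lower, with the flattest line for SPX5551 in KLHL24 and BCL2A1.

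Most genes of the list of ribosome biogenesis and MYC targets fell. MYC itself rose, most in both ibrutinib-exposed pairs and least with DMSO. Of 25 members, all tested, 18 fell and none rose, against a background of 16.2% lower, and 24 had a negative log2 fold change. The median was -0.36, and by treatment it was -0.42 with ibrutinib, -0.27 with SPX5551, -0.50 with the combination and -0.38 with DMSO. NOP16, a nucleolar protein of the large subunit pathway, had 108, 148, 75.0 and 124 CPM at 12 h, against 174, 181, 135 and 220.3 CPM at 4 h (log2 fold change -0.66 ± 0.10 SE, adjusted p = 0.000481). PES1, which matures the large subunit RNA, had 191, 232, 126 and 220.1 CPM at 12 h, against 296, 285, 231 and 302 CPM at 4 h (log2 fold change -0.56 ± 0.095 SE, adjusted p = 0.00102). DKC1, the pseudouridine synthase dyskerin, had 574, 616, 356 and 618 CPM at 12 h, against 823, 783, 632 and 881 CPM at 4 h (log2 fold change -0.55 ± 0.091 SE, adjusted p = 0.000931). In each of these the combination library was the lowest of its time. WDR43, NIP7, NCL (nucleolin), NOP56, NOP58, FBL (fibrillarin) and NPM1 (nucleophosmin) fell too, by 0.28 to 0.52 on the log2 scale. The largest rRNA polymerase subunit gene POLR1A had a log2 fold change of 0.10 and did not pass. Leaving out 1 treatment left 13 to 17 of the 25 lower.

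Promoters of this group are shown because its members moved together and MYC is known to bind E-boxes at such genes. The E-box CACGTG, which reads the same on both strands, lay in 7 of the 18 RefSeq windows of 15 genes that fell (38.9%), against 7.26% of 35116 windows of all genes. The windows run from 250 bases before to 50 bases after a gene's start on build GRCh38.p14, read on the gene's strand, and the capitals mark the E-box. Base composition was not matched, and a match is not evidence of binding. The list was written to hold MYC targets, so a high share of E-boxes may follow from the choice of its members.
PES1, chr22:30591861-30592160, minus strand: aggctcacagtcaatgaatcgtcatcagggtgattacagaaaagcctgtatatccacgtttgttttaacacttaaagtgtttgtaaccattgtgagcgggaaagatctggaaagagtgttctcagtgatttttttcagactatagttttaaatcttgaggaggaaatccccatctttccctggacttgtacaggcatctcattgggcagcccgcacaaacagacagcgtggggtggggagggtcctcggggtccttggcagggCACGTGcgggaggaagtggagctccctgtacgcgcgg
WDR43, chr2:28894417-28894716, plus strand: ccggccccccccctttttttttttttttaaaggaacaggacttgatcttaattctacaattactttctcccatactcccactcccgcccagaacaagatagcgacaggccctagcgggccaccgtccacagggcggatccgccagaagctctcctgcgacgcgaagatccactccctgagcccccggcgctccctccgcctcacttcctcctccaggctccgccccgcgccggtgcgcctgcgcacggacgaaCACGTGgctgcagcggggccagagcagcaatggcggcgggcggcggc

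Genes of polyamine and one-carbon metabolism fell more often than they rose. ODC1, the rate-limiting enzyme of polyamine synthesis and a known MYC target, had 652, 912, 481 and 792 CPM at 12 h, against 1124, 1162, 943 and 1253 CPM at 4 h (log2 fold change -0.69 ± 0.10 SE, adjusted p = 0.0005). AMD1, which supplies decarboxylated S-adenosylmethionine, had 187, 183, 142 and 192 CPM at 12 h, against 277, 248, 251 and 296 CPM at 4 h (log2 fold change -0.62 ± 0.082 SE, adjusted p = 0.000319). Of the 17 tested genes 8 fell and 3 rose, with a median of -0.18, against a background of 16.2% lower and 18.8% higher; with scaling by library size alone 5 fell and 3 rose. The 3 that rose were the cytosolic enzymes SHMT1, MTHFD1 and GART, at 0.24, 0.25 and 0.40, whereas the mitochondrial enzymes SHMT2, MTHFD2 and MTHFD1L fell, at -0.27, -0.24 and -0.52. Without the combination pair 5 of the 17 fell and 1 rose, and without the ibrutinib or DMSO pair 1 rose.

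Hypoxia-response and glycolytic genes fell more often than they rose. Of 21 tested hypoxia genes 8 fell and 1 rose, with a median of -0.20, and of 21 glycolysis genes 9 fell and 2 rose, also with a median of -0.20; the background was 16.2% lower and 18.8% higher. Of the hypoxia genes 13 had a negative and 8 a positive log2 fold change. CA9, the carbonic anhydrase used as a marker of hypoxia, had the largest fall of the list. It had 0.0509, 0.446, 0.0760 and 0.101 CPM at 12 h, against 1.70, 1.14, 2.12 and 0.910 CPM at 4 h (log2 fold change -3.14 ± 0.51 SE, adjusted p = 0.000833), and these values rest on 138 counts over 8 libraries. BNIP3, a mitophagy receptor, had 19.7, 21.8, 20.5 and 19.4 CPM at 12 h, against 36.9, 33.0, 40.4 and 46.3 CPM at 4 h (log2 fold change -0.93 ± 0.11 SE, adjusted p = 0.000148), with tight 12 h libraries and no overlap. FAM162A, a mitochondrial protein induced by hypoxia, had 40.4, 56.0, 36.8 and 39.3 CPM at 12 h, against 75.0, 80.1, 77.7 and 98.9 CPM at 4 h (log2 fold change -0.95 ± 0.11 SE, adjusted p = 0.00018). KDM3A, a histone demethylase that is also a hypoxia target, was the 1 tested member that rose past the threshold, and it had 67.5, 51.0, 71.2 and 64.7 CPM at 12 h, against 38.4, 41.6, 45.3 and 32.9 CPM at 4 h (log2 fold change 0.68 ± 0.10 SE, adjusted p = 0.000621). VEGFA and ADM, other standard targets, had log2 fold changes of -0.23 and -0.11 and did not pass.

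Among the glycolysis genes, ALDOC, TPI1, GAPDH, PGK1, ENO1 and LDHA fell. ALDOC, an aldolase, had 52.6, 59.2, 43.3 and 51.3 CPM at 12 h, against 99.6, 93.1, 91.1 and 103 CPM at 4 h (log2 fold change -0.91 ± 0.086 SE, adjusted p = 6.12e-05). PGK1, phosphoglycerate kinase, had 1006, 1081, 891 and 1003 CPM at 12 h, against 1556, 1489, 1500.5 and 1613 CPM at 4 h (log2 fold change -0.63 ± 0.084 SE, adjusted p = 0.000319). LDHA, which makes lactate, had 1464, 1741, 1088 and 1580.0 CPM at 12 h, against 2284, 2245, 1997 and 2599 CPM at 4 h (log2 fold change -0.65 ± 0.10 SE, adjusted p = 0.000545). In all 3 the times did not overlap, and at 12 h the combination library was the lowest. ENO1, TPI1, GAPDH and GPI fell with log2 fold changes of -0.60, -0.36, -0.34 and -0.30, while ENO2 and HK1 rose with 0.66 and 0.26. PKM, HK2 and the glucose transporter gene SLC2A1 did not pass, with -0.14, 0.004 and 0.13. The glycolysis list as a whole took 1.13 to 1.47% of all counts at 12 h and 1.52 to 1.68% at 4 h. Without the ibrutinib pair 5 of the 21 glycolysis genes fell, and without the SPX5551 pair 12 did; 1 rose when the ibrutinib, combination or DMSO pair was left out.

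The core motif ACGTG, bound by hypoxia-inducible factors and contained in the E-box above, was sought on both strands. It lay in 5 of 8 windows of 7 hypoxia genes that fell (62.5%) and in 7 of 11 windows of 8 glycolysis genes that fell (63.6%), against 21.4% of all windows. It also lay in 50.0% of the windows of the ribosome genes that fell, so it was not particular to the hypoxia genes. The hypoxia list was written from known hypoxia-response genes, so a high share there may follow from the choice of its members. CA9 and PGK1 are shown as the largest fall of the first list and an abundant enzyme of the second, with the motif in capitals.
CA9, chr9:35673678-35673977, plus strand: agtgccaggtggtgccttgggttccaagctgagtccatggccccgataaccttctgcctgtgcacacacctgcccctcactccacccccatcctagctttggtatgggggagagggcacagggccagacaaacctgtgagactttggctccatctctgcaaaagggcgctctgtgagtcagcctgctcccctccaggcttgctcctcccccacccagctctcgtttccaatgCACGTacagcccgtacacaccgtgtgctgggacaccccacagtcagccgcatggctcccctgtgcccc
PGK1, chrX:78103998-78104297, plus strand: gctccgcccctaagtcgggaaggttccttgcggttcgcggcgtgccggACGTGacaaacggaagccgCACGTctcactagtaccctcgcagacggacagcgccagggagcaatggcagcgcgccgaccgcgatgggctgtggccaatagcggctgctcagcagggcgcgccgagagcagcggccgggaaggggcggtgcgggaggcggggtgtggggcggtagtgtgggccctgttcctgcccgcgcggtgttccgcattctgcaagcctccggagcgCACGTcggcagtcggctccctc

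Many genes of quiescence and FOXO targets rose. Of 21 tested members 12 rose and 2 fell, with a median of 0.34, against a background of 18.8% higher and 16.2% lower. Of the 12 that rose, 8 were shared. By treatment the median was 0.55 with ibrutinib, 0.03 with SPX5551, 0.57 with the combination and 0.43 with DMSO. BTG2, which restrains proliferation, had 196, 155, 246 and 162 CPM at 12 h, against 84.3, 114, 87.4 and 91.1 CPM at 4 h (log2 fold change 0.997 ± 0.14 SE, adjusted p = 0.000345). YPEL3, a gene linked to growth arrest, had 8.24, 5.35, 10.1 and 5.21 CPM at 12 h, against 2.31, 3.10, 4.16 and 2.03 CPM at 4 h (log2 fold change 1.31 ± 0.18 SE, adjusted p = 0.000326). CDKN1B, which encodes the cyclin-dependent kinase inhibitor p27, had 61.4, 48.6, 57.8 and 48.2 CPM at 12 h, against 38.1, 41.3, 42.7 and 30.3 CPM at 4 h (log2 fold change 0.51 ± 0.092 SE, adjusted p = 0.00163). In these 3 genes all 12 h libraries lay above all 4 h libraries. TXNIP, which restrains glucose uptake, fell: it had 44.9, 41.1, 54.0 and 38.3 CPM at 12 h, against 86.5, 68.1, 94.6 and 73.3 CPM at 4 h (log2 fold change -0.85 ± 0.079 SE, adjusted p = 5.93e-05). Without the ibrutinib pair 7 members rose, without the combination pair 6, and without the SPX5551 pair 15.

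Cell cycle genes did not move one way. In the list of G1 and S regulators 8 of 20 rose and 2 fell, against a background of 18.8% higher and 16.2% lower. With the length and GC trend removed 8 rose and 6 fell, and with scaling by library size alone 9 rose and 1 fell. The inhibitor gene CDKN2C (p18) had 243, 253, 265 and 222 CPM at 12 h, against 141, 182, 152 and 143 CPM at 4 h (log2 fold change 0.67 ± 0.082 SE, adjusted p = 0.00019), and RB1, CCND3 and CCNE2 rose with log2 fold changes of 0.49, 0.45 and 0.39, while CDC25A and E2F1 fell with -0.49 and -0.29. Of 32 replication genes 8 fell and 3 rose, with a median of -0.03. With scaling by library size alone the balance turned, to 7 that rose and 6 that fell, and the median was 0.04. PCNA, the sliding clamp, had 492, 593, 448 and 486 CPM at 12 h, against 665, 672, 758 and 703 CPM at 4 h (log2 fold change -0.48 ± 0.10 SE, adjusted p = 0.00277), and FEN1, the flap endonuclease, fell with -0.46 ± 0.08 (SE), adjusted p = 0.00131. PRIM1, a primase subunit, had 81.3, 81.6, 86.4 and 79.5 CPM at 12 h, against 52.2, 64.2, 48.6 and 56.2 CPM at 4 h (log2 fold change 0.58 ± 0.089 SE, adjusted p = 0.000675). The MCM helicase genes MCM2 to MCM6 did not pass.

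Mitotic genes divided into 12 that rose and 10 that fell among 34, with a median of 0.005, against a background of 18.8% higher and 16.2% lower. The risers included HMMR, a spindle protein, which had 100.3, 84.6, 115 and 94.4 CPM at 12 h, against 64.5, 63.7, 70.0 and 52.3 CPM at 4 h (log2 fold change 0.65 ± 0.086 SE, adjusted p = 0.000303), the checkpoint kinase gene BUB1 at 0.61, CENPF at 0.58, TOP2A at 0.42 and the mitotic transcription factor FOXM1 at 0.53. The fallers included CCNB1, AURKA, CDK1 and UBE2C, with log2 fold changes of -0.53, -0.50, -0.35 and -0.29. Removing the trend with transcript length and GC content left the counts at 12 and 10. Leaving out the ibrutinib pair left 7 mitotic genes higher and 4 lower, and leaving out the combination pair left 8 and 4. For the replication list those numbers were 1 higher and 4 lower, then 1 and 5. For the G1 and S list they were 5 and 1, then 4 and 1, with 5 and 2 without the DMSO pair and 8 and 4 without the SPX5551 pair. Without the DMSO pair 1 replication gene rose and 7 fell.

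Genes of B-cell identity rose or did not pass. Of 15 tested members 10 rose and none fell, with a median of 0.45 and a background of 18.8% higher, and their summed level was 4627 to 4824 CPM at 12 h and 3284 to 4107 CPM at 4 h, groups that did not overlap. CIITA, the master activator of MHC class II genes, had 50.3, 40.2, 52.4 and 65.2 CPM at 12 h, against 23.8, 27.7, 18.3 and 24.9 CPM at 4 h (log2 fold change 1.13 ± 0.13 SE, adjusted p = 0.000176). POU2AF1, a B-cell coactivator, had 292, 233, 256 and 241 CPM at 12 h, against 142, 161, 101 and 118 CPM at 4 h (log2 fold change 0.99 ± 0.11 SE, adjusted p = 0.000138). CD79A, a signalling chain of the B-cell receptor, had 1045, 1144, 1028 and 1016 CPM at 12 h, against 762, 881, 701 and 761 CPM at 4 h (log2 fold change 0.45 ± 0.079 SE, adjusted p = 0.00134). In these 3 genes every 12 h library lay above every 4 h library. CD22, IRF8 and EBF1 rose with log2 fold changes of 0.63, 0.65 and 0.45. PAX5 and BCL6 passed at 0.46 and 0.69 but were not shared: with SPX5551, PAX5 had 361 CPM at 12 h and 392 CPM at 4 h. MS4A1 and CD79B did not pass, with -0.08 and 0.16. In the MHC class II list 5 of 13 genes were tested, so most of the list could not be judged. CIITA, the activator counted above, was the 1 tested member that passed, and none of the other 4 did.

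Genes of plasma cell differentiation gave 4 risers and 2 fallers of 13, against a background of 18.8% higher and 16.2% lower. IRF4, which drives that path, had 77.4, 93.4, 62.5 and 113 CPM at 12 h, against 124, 136, 92.8 and 186 CPM at 4 h (log2 fold change -0.62 ± 0.075 SE, adjusted p = 0.000189). Among receptors and adhesion molecules of migration 7 of 19 rose and 5 fell. ITGB7, an integrin subunit of gut homing, had 15.7, 17.1, 14.3 and 14.3 CPM at 12 h, against 7.65, 10.5, 6.15 and 7.71 CPM at 4 h (log2 fold change 0.96 ± 0.12 SE, adjusted p = 0.000212). S1PR2, a receptor that confines B cells to follicles, rose with 0.88 ± 0.14 (SE), adjusted p = 0.000833. CXCR3 fell with -1.19 ± 0.28 (SE), adjusted p = 0.00658, at low levels. It had 0.916, 1.39, 0.380 and 1.06 CPM at 12 h, against 2.83, 2.07, 0.563 and 3.53 CPM at 4 h, and the groups overlapped. Without the ibrutinib or the combination pair 4 of these 19 rose, and without the DMSO, ibrutinib or combination pair 1 plasma cell gene rose; 1 fell without the combination pair. CXCR4, the target of SPX5551, stood at 20.9 to 25.5 CPM at 12 h and 16.4 to 22.2 CPM at 4 h. BTK, the target of ibrutinib, stood at 346 to 378 CPM at 12 h and 270 to 322 CPM at 4 h, with no overlap. Of 13 tested clock genes 4 rose and none fell, against a background of 18.8% higher and 16.2% lower. PER1, a core repressor of the clock, had 16.9, 12.9, 16.5 and 15.9 CPM at 12 h, against 5.99, 8.73, 5.98 and 7.22 CPM at 4 h (log2 fold change 1.17 ± 0.15 SE, adjusted p = 0.000281), and DBP, an output gene, rose with 0.93 ± 0.17 (SE), adjusted p = 0.00182. Without the SPX5551 pair 7 clock genes rose. Medians by treatment in the clock list were 0.31 with ibrutinib, 0.01 with SPX5551, 0.33 with the combination and 0.37 with DMSO.

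Interferon-stimulated genes rose in part. Of 23 tested members 10 rose and 1 fell, with a median of 0.26, against a background of 18.8% higher and 16.2% lower. By treatment the median was 0.38 with ibrutinib, 0.20 with SPX5551, 0.58 with the combination and 0.32 with DMSO. SAMD9L, a restriction factor, had 22.8, 12.2, 39.2 and 17.9 CPM at 12 h, against 7.22, 7.75, 9.57 and 4.98 CPM at 4 h (log2 fold change 1.57 ± 0.18 SE, adjusted p = 0.000158). Its neighbour on chromosome 7, SAMD9, had 60.7, 28.2, 79.5 and 47.8 CPM at 12 h, against 19.7, 19.4, 25.5 and 15.4 CPM at 4 h (log2 fold change 1.37 ± 0.16 SE, adjusted p = 0.000148). OAS1, which makes the second messenger that activates RNase L, had 7.94, 6.59, 11.2 and 5.31 CPM at 12 h, against 2.69, 3.30, 2.30 and 2.41 CPM at 4 h (log2 fold change 1.52 ± 0.20 SE, adjusted p = 0.000319). In these 3 genes the combination library of 12 h was the highest of all. OAS2, IFIT2, IFIT3, MX2, STAT2 and IRF7 rose with log2 fold changes from 0.52 to 1.09. MX1 fell: it had 16.4, 17.5, 18.5 and 15.8 CPM at 12 h, against 30.4, 22.1, 25.8 and 24.8 CPM at 4 h (log2 fold change -0.59 ± 0.11 SE, adjusted p = 0.00149). ISG15, IFI6 and IFIH1, classical members of the group, did not pass, with 0.013, -0.002 and -0.012. Without the combination pair 6 members rose.

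The interferon-stimulated response element was sought in the same windows, with 2 unspecified bases between its GAAA repeats. It lay in 3 of 7 windows of 6 genes that rose (42.9%), 2 of these windows belonging to IFIT3, against 3.57% of all windows. The list was written from known interferon-stimulated genes, so a high share may follow from the choice of its members. SAMD9 and the upstream window of IFIT3 are shown as the matching members, with the element in capitals.
SAMD9, chr7:93117930-93118229, minus strand: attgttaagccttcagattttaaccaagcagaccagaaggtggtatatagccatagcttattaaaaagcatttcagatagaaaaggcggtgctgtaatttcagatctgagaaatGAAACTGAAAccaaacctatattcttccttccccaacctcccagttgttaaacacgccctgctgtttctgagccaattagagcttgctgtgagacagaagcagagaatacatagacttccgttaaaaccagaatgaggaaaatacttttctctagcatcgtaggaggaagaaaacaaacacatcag
IFIT3, chr10:89327747-89328046, plus strand: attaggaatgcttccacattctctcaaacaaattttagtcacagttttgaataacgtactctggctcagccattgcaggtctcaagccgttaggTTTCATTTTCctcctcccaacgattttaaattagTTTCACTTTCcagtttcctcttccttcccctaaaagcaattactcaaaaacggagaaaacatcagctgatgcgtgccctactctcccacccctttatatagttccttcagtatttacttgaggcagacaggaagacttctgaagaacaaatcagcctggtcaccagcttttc

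**Figure D4:**
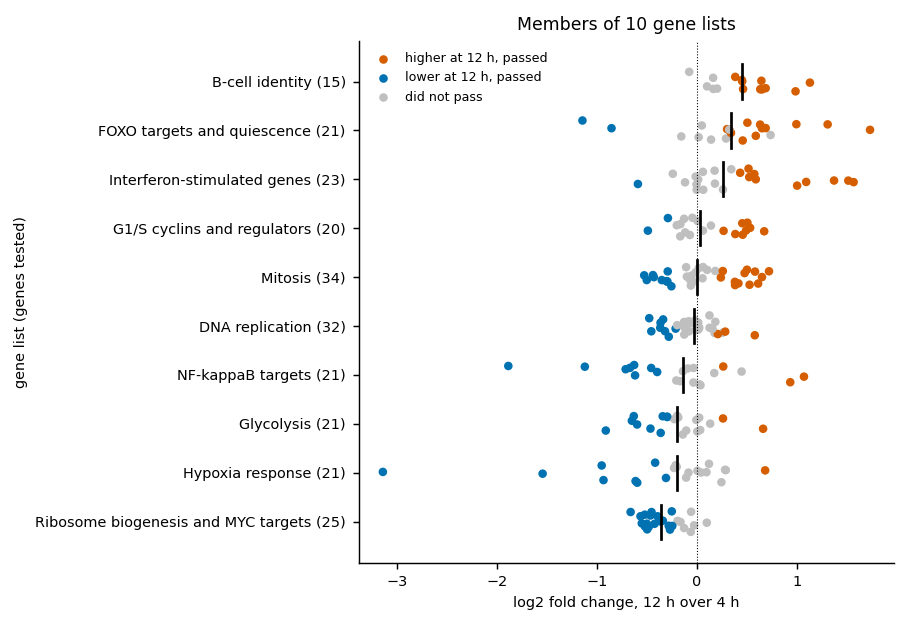
Each point is 1 tested gene of a list, with its log2 fold change of 12 h over 4 h on the x axis. Black bars are list medians, orange genes rose, blue genes fell and grey genes did not pass. The medians run from 0.45 for B-cell identity to -0.36 for ribosome biogenesis and MYC targets.

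Stress and organelle genes gave mixed changes, to be read against the background of 18.8% higher and 16.2% lower. In the unfolded protein response of the endoplasmic reticulum 7 of 21 rose and 1 fell, with 8 and 3 after removing the length and GC trend. SYVN1, a ubiquitin ligase of protein quality control, had 183, 177, 183 and 193 CPM at 12 h, against 127, 135, 129.8 and 121 CPM at 4 h (log2 fold change 0.53 ± 0.078 SE, adjusted p = 0.000545), and DNAJB9, a chaperone partner, rose with 0.55 ± 0.11 (SE), adjusted p = 0.00271, while HSPA5 and XBP1 had 0.04 and 0.019 and did not pass. Of 21 p53 targets 8 rose and 4 fell: TP53INP1 rose with 1.31 ± 0.20 (SE), adjusted p = 0.00058 and FAS with 0.47, ZMAT3 and MDM2 fell with -0.68 and -0.34, and CDKN1A had -0.04 and did not pass. Of 30 genes of autophagy and the lysosome 10 rose and 4 fell. ATG2A and ATG9A, which carry lipid to growing autophagosomes, rose with 0.77 ± 0.10 (SE), adjusted p = 0.000264 and 0.72, and CTSD, a lysosomal protease, rose with 0.63. Without the ibrutinib pair 3 genes of the unfolded protein response rose and none fell, 2 p53 targets rose and 2 fell, and 4 autophagy genes rose and 1 fell. Leaving out the combination pair left 4 p53 targets higher and 1 lower, and 4 autophagy genes higher and 1 lower. Leaving out the DMSO pair left 5 autophagy genes higher and 2 lower, and scaling by library size alone gave 10 higher and 1 lower.

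Among ATF4 targets 5 of 26 rose and 8 fell, against a background of 18.8% higher and 16.2% lower; with scaling by library size alone the balance turned, to 6 that rose and 5 that fell. ASNS, asparagine synthetase, had 30.7, 45.2, 27.1 and 34.2 CPM at 12 h, against 43.0, 51.8, 54.8 and 50.9 CPM at 4 h (log2 fold change -0.57 ± 0.11 SE, adjusted p = 0.00271), the amino acid transporter gene SLC7A5 fell with -0.60, and PHGDH, the first enzyme of serine synthesis, rose with 0.53. Without the ibrutinib or the combination pair 3 members fell; 1 rose without the ibrutinib pair, 3 without the combination pair and 2 without the DMSO pair. Of 20 cytosolic chaperones 3 rose and 2 fell: HSP90AA1 had 3458, 3758, 3289.6 and 3503 CPM at 12 h, against 2411, 3011, 2573 and 2606 CPM at 4 h (log2 fold change 0.41 ± 0.086 SE, adjusted p = 0.0037), and HSPA8 fell with -0.37. Leaving out the ibrutinib pair left no chaperone gene past the threshold, leaving out the SPX5551 pair 6 higher and 3 lower, leaving out the combination pair 3 higher and none lower, and leaving out the DMSO pair 2 of each; library size alone gave 5 higher and 1 lower. Of 22 sterol synthesis genes 5 rose and 2 fell, with a median of 0.35 for DMSO and -0.23 for the combination. TM7SF2, a sterol reductase, had 38.4, 43.1, 34.4 and 40.5 CPM at 12 h, against 18.6, 25.1, 24.6 and 17.7 CPM at 4 h (log2 fold change 0.87 ± 0.11 SE, adjusted p = 0.000275). Without the DMSO or the ibrutinib pair 2 sterol genes rose. The sterol genes that fell numbered 1 without the ibrutinib pair, without the combination pair or with library size alone, and 3 without the SPX5551 pair. INSIG1, the sterol sensor's partner, fell with -0.47 ± 0.12 (SE), adjusted p = 0.00819. Of 12 fatty acid genes 4 fell and none rose, with a median of -0.05 that became 0.03 with scaling by library size alone, and 2 fell without the combination pair; SCD, the stearoyl desaturase, fell with -0.41 ± 0.10 (SE), adjusted p = 0.00944.

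In the list of growth factor and serum response genes (SRF and YAP targets) 6 of 13 rose and 2 fell, against a background of 18.8% higher and 16.2% lower. Leaving out the ibrutinib pair left 5 higher and 1 lower, leaving out the combination pair 4 and 1, and the length and GC correction gave 6 higher and 4 lower. FLNA, filamin A, had 347, 216, 351 and 354 CPM at 12 h, against 205, 170.4, 199 and 155 CPM at 4 h (log2 fold change 0.78 ± 0.11 SE, adjusted p = 0.00048), and VCL, vinculin, rose with 0.63. Of 28 nuclear genes of the respiratory chain 3 rose and 4 fell, of 13 mitochondrial transcripts 1 rose and 5 fell, of 17 NRF2 targets 3 rose and 4 fell, of 11 iron and metal genes 2 rose and 2 fell, and of 12 replication-dependent histone genes 2 fell. Among mitochondrial transcripts the DMSO library of 4 h was high: MT-ND6, a subunit of complex I, had 52.3, 63.0, 44.8 and 52.0 CPM at 12 h, against 78.7, 81.4, 71.5 and 116 CPM at 4 h (log2 fold change -0.70 ± 0.11 SE, adjusted p = 0.000773). Mitochondrial transcripts took 6.70 to 6.78% of all counts at 12 h, and 8.74% in the DMSO library and 6.94 to 7.55% in the other libraries of 4 h. Leaving out the DMSO, ibrutinib or combination pair left 1 mitochondrial transcript lower. For the respiratory chain it left none higher, with 2, 2 and 1 lower in that order, and leaving out the SPX5551 pair left 3 higher and 12 lower. The NRF2 list had 1 higher and 1 lower without the ibrutinib or the combination pair, and 3 and 1 without the DMSO pair. No iron or metal gene passed without the ibrutinib or the combination pair, 2 fell and none rose without the DMSO pair, and 2 rose and none fell without the SPX5551 pair. Of the histone genes 1 fell when the DMSO, ibrutinib or SPX5551 pair was left out. Histone transcripts are poorly captured by poly(A) selection, which limits what their counts show.

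At 8 h most shared genes were between their levels of 4 h and 12 h. In a fit of all 12 libraries, 3207 of the 4398 shared genes (72.9%) had an 8 h level between those of 4 h and 12 h, 938 lay beyond 12 h and 253 lay on the other side of 4 h. The median share of the change reached at 8 h was 0.67. All but 1 of the 30 named genes lay between; for ID1 the log2 fold change over 4 h was 2.30 at 8 h and 2.16 at 12 h in that fit. The 4 h libraries enter both changes, so the 2 axes are not independent. Shared genes were also chosen for a difference between 4 h and 12 h, which by itself favours an 8 h level between them. The same share over all tested genes is not given here, so these numbers do not show a gradual course. An earlier description of these data placed 2 of the 8 h libraries at the ends of a transcript length trend. The part of that trend in these positions was not tested.

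**Figure D5:**
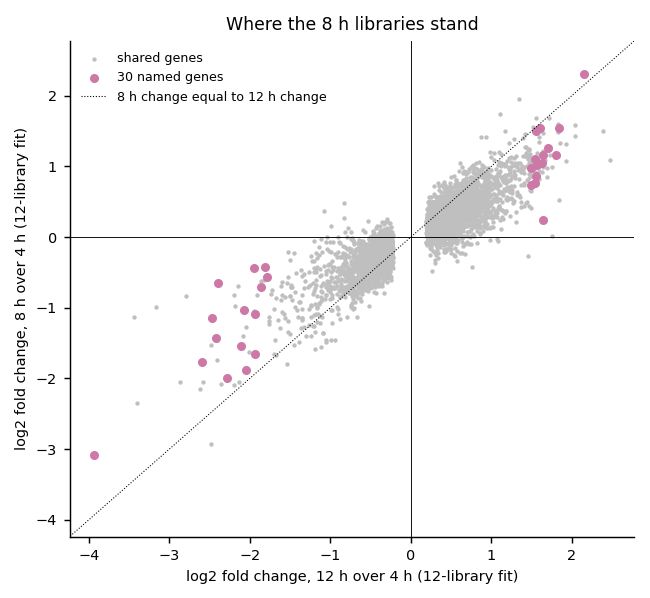
Each grey point is a shared gene and each pink point 1 of the 30 named genes, from the fit of all 12 libraries. The x axis is the log2 fold change of 12 h over 4 h and the y axis that of 8 h over 4 h. Of the shared genes, 72.9% lie between no change and the dotted line of equal change. These genes were chosen for a difference between 12 h and 4 h, which favours such a position.

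Whether a drug altered the change over time was tested as an interaction of time with exposure, with 2 residual degrees of freedom. For ibrutinib, given alone or in the combination, 0 of 13736 genes passed an adjusted p of 0.05 in edgeR's test (0%), 305 had an unadjusted p under 0.05, and DESeq2 called 0. For SPX5551 the number was also 0 (0%), with 295 genes at an unadjusted p under 0.05 and 0 in DESeq2. Without the filter on low counts 15 genes passed for ibrutinib and 1, BCL2A1, for SPX5551. The smallest p-values for ibrutinib were those of KIF26B, CXCL10, EGR1, TNF and CXCL9. KIF26B had 1.63, 4.46, 0.874 and 6.93 CPM at 12 h, against 12.6, 9.55, 8.58 and 19.7 CPM at 4 h, so that both ibrutinib-exposed pairs fell further than the other 2, by 2.88 and 3.16 against 1.08 and 1.49 on the log2 scale. EGR1, an immediate early gene of receptor signalling, had 3.87, 10.4, 2.58 and 10.4 CPM at 12 h, against 0.708, 8.37, 0.866 and 10.3 CPM at 4 h. Its 4 h level was low in both ibrutinib-exposed libraries and higher at 12 h, while the SPX5551 and DMSO libraries had like levels at both times. The smallest p-values for SPX5551 were those of MCF2, SIRPA, BCL2A1, EFR3B and CHAC1. With SPX5551 alone, BCL2A1 fell by 0.59 on the log2 scale, against 2.60 with ibrutinib, 1.95 with the combination and 2.64 with DMSO. A p that misses the threshold does not show that the treatments changed alike over time.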

How the data were processed

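Poly(A) RNA of REC1 cells was sequenced on a NextSeq2000 from directional libraries, per the labels' protocols. The deposited values are counts for each Ensembl gene ID and, in a further table, the authors' log2 CPM. Per the submitters' processing notes, BWA and build hg38 were used; for the BWA version, the counting tool and the strand setting the sources used here give nothing. The kit marks strand, but reads of overlapping or antisense genes, and of genes with near-identical copies such as CCL4, NPM1, GAPDH and HSPA8, may have been split or merged in counting. Times and treatments follow titles and column headers.

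Genes were kept by filterByExpr by time (minimum count 10) and fitted with edgeR 4.0.16 in R 4.3.3 (quasi-likelihood F-test, TMM, treatment as a block, 3 residual degrees of freedom, Benjamini-Hochberg over all 13736 genes). Log2 CPM per library used a prior count of 2. limma 3.58.1 and DESeq2 1.42.0 were alternatives, and scripts were tested on simulated data. Symbols matched 93.8% of 60483 IDs, with positions from GENCODE on GRCh38; promoter windows are from RefSeq, GRCh38.p14. The members and the 32 gene lists were chosen with earlier results of these data known, so no list carries a test and no direction shown earlier is independent support. Named genes are the 15 largest rises and 15 largest falls with an adjusted p under 0.05, at least 2 log2 CPM on average and the same sign in all 4 treatments, up to 4 passing members with the largest change per list, and the 5 smallest p-values per exposure comparison. Other list members were named for their role or as members that did not pass, after their values were seen. The SE is |log2 fold change| over the root of edgeR's F. Labels do not say whether samples came from separate cultures.

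The alternatives were other scalings, other tests, no filter, all 12 samples, no treatment block, removal of the length and GC trend, and leaving out each treatment pair. Some members counted in the lists are not reported here by name.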

Additional observations from a re-analysis of the deposited data

Results flagged for a closer look

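In 6 of 148 named genes the change between 12 h and 4 h of 1 treatment stood apart from the other 3 by Dixon's criterion for 4 values, which chance meets in about 1 in 20 groups. In 4 of them it was SPX5551 that stood apart, each time with the smaller rise. KLHL24 had a log2 change of 0.71 with SPX5551, against 2.18 to 2.27 with the other treatments. TRPM2 had 1.15 with SPX5551, against 1.75 to 1.85. MAP1B had 0.62 with SPX5551, against 1.70 to 1.87. SAMD9 had 0.54 with SPX5551, against 1.62 to 1.64. PTPRF changed by -2.22 with ibrutinib, against -1.79 to -1.78 in the others. INSIG1 changed by -1.02 with the combination, against -0.34 to -0.22 in the others.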

How the results depend on the processing

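The 12 h against 4 h count of 4800 passing genes stayed within 1.5 times under other scalings, DESeq2 (4068), limma-voom (4875), limma on the deposited log2 CPM (4854), no filter (4751), all 12 samples (5203), removal of the length and GC trend (5611) and no treatment block (3267). Without the treatment block the genes lower at 12 h numbered 1447. Leaving out 1 treatment pair in turn gave 2387 to 6225 passing genes, 1198 to 3281 higher, 1036 to 2944 lower and 2359 to 6096 shared; the lowest counts came without the ibrutinib or the combination pair. Without the filter on low counts the exposure comparisons gave 15 genes for ibrutinib and 1 for SPX5551. Of 144 named genes that passed, 0 reversed under any alternative that was run, and the 30 largest changes kept call and sign in each. Losses of call numbered 32 without the ibrutinib pair, 32 without the combination pair, 21 without the DMSO pair and 4 without the SPX5551 pair. They numbered 27 without the treatment block, 12 with DESeq2, and 5 each with library size alone and with limma on the deposited log2 CPM. The remaining alternatives lost 3 or fewer. The cause was not tested. The comparison is a paired one, with 1 library of each time per treatment, and the treatment block is that pairing. At depths of 19336303 to 24432822 counts, genes near 1 CPM, such as CA9, rest on few counts.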

Other observations

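Long non-coding RNA genes that passed were more often higher than lower. Of 430 tested lincRNA genes 82 were higher and 22 lower at 12 h, with a median log2 fold change of 0.23, and of 540 antisense genes 96 were higher and 22 lower, with a median of 0.25. Among all tested genes 18.8% were higher and 16.2% lower. In the lincRNA and antisense classes the share of rises was thus near the background, and the share of falls was below it. Protein-coding genes had 2262 higher and 2070 lower of 11615, with a median of 0.00. Processed pseudogenes went the other way, with 11 higher and 27 lower of 254 and a median of -0.16, though both shares were below the background. Of 8 mitochondrial tRNA genes 4 fell, with a median of -0.80. Over all tested genes with a known length, Spearman's rho between log2 fold change and transcript length was 0.16, and the part of length and of poly(A) capture in these medians was not tested.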
